A study of Mus musculus with 27 samples.

Results

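The Hox genes of the mouse were followed through embryoid body differentiation in wild-type cells and in 2 knockout lines. The members are the 39 protein-coding genes, of 51826 gene identifiers in each deposited count file, whose symbol is Hoxa, Hoxb, Hoxc or Hoxd followed by a number alone. They lie in 4 clusters on GRCm38: 11 Hoxa genes on chromosome 6 (52155590 to 52260880, minus strand), 10 Hoxb genes on chromosome 11 (96194316 to 96368256, plus strand), 9 Hoxc genes on chromosome 15 (102921103 to 103036852, plus strand) and 9 Hoxd genes on chromosome 2 (74668310 to 74765142, plus strand). The number in a symbol is the paralog number: here genes 1 to 4 are called anterior (12 genes), 5 to 8 central (11 genes) and 9 to 13 posterior (16 genes).

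Hox genes encode homeodomain transcription factors that give cells their position along the head-to-tail axis. Genes at the 3′ end of a cluster (low numbers) are switched on earlier and farther forward in the embryo, and genes at the 5′ end (high numbers) later and nearer the tail. The clusters are held silent in embryonic stem cells by Polycomb complexes and are opened during gastrulation by Wnt, retinoic acid, Fgf and Cdx factors. Hox proteins bind DNA together with the Pbx and Meis cofactors.

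3 lines were compared, all from the E14 mouse embryonic stem cell line: wild type, a line with a knockout of Quaking (gene Qk) and a line labelled as a knockout of Sam68 (gene Khdrbs1). Quaking and Sam68 are RNA-binding proteins of the STAR family. Each line was sampled in the stem cell state (day 0) and after 3 and 10 days as embryoid bodies, which are floating aggregates of differentiating cells, with 3 biological replicates per group, so 27 libraries in 9 groups. Each knockout is a single line, so an effect of the clone cannot be told apart from that of the knockout, and the Sam68-labelled libraries carry a separate run of library numbers, so library batch and that label cannot be told apart either.

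Libraries held 56461674 to 77257496 counts, and levels are given as CPM, the counts of a gene per 1000000 counts of its library. Qk RNA was lower in its knockout line (log2 fold change -0.58 at day 0, -0.95 at day 3 and -0.41 at day 10) but far from absent. Khdrbs1 was not lost in the line labelled Sam68: its log2 fold change was -0.03 at day 0, -0.70 at day 3 and -0.25 at day 10, and the day 3 value alone passed the test. That line is therefore called Sam68-labelled throughout. Log2 fold changes are from edgeR on scaled counts, and plain CPM differs from them by up to 0.17 in the median over all genes (wild type, day 3 to day 10).

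Stem cell markers were present where the labels place them: the summed level of 8 pluripotency genes was 4116 CPM in wild type at day 0 and 159.7 CPM at day 10. In bulk RNA, fewer cells of a type and less RNA per cell cannot be told apart, and each p-value reflects the spread among these libraries alone, which may be partly technical.

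Promoter sequences are shown for 3 genes on which the results below turn: Hoxb1 (anterior, higher in the Quaking knockout at day 10), Hoxa13 and Hoxd11 (posterior, lower there). Each is 300 bases of RefSeq on GRCm38.p6, 5′ to 3′ on the gene's strand, across the start. Capitals mark a match, on either strand, to TGATNNAT, a Pbx-Hox site, or to TTTATG, which is read as CATAAA on the other strand and is a Cdx site. A match describes the letters and is not evidence of binding. RefSeq gives 2 promoters for Hoxd11, and the upstream one is shown.
Hoxb1, chr11:96365508-96365807, plus strand: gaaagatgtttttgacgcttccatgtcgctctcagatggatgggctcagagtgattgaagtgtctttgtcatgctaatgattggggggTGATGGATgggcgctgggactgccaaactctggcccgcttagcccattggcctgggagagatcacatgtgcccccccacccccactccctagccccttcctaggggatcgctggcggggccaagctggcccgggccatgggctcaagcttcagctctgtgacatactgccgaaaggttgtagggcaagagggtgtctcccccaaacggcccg
Hoxa13, chr6:52260831-52261130, minus strand: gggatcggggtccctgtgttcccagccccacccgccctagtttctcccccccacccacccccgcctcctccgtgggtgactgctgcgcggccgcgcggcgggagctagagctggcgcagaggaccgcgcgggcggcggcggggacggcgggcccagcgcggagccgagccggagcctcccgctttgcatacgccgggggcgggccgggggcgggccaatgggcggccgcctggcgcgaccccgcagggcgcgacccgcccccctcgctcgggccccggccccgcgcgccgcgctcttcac
Hoxd11, chr2:74679308-74679607, plus strand: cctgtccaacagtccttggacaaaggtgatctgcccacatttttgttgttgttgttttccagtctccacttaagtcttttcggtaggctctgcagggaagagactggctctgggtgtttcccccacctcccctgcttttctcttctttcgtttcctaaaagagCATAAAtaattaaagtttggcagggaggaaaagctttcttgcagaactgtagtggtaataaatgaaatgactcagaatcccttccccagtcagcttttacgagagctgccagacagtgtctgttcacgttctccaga
The Hoxb1 match (TGATNNAT) begins at -162 from the start and the Hoxd11 match (TTTATG) at -87, while neither motif occurs in the Hoxa13 window, whose GC content is 81.0%. The other Hoxd11 promoter, at chr2:74682073-74682372, holds a TGATNNAT match and no TTTATG, with a GC content of 62.0%. RefSeq gave 24 promoters for 22 Hox genes. TTTATG was in 5 of the 24 (20.8%) against 11.9% of 32851 promoters of the same length, and TGATNNAT in 4 (16.7%) against 8.85%. Hox promoters had a median GC content of 57.7% against 52.7% over all promoters.

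Quaking binds RNA that holds ACUAAY, so the letters ACTAAC and ACTAAT were looked for on the sense strand of the longest protein-coding GENCODE M21 transcript of each Hox gene. At least 1 match was in 10 of 39 Hox transcripts (25.6%) against 43.3% of 21901 protein-coding genes. The median transcript was 2136 against 2680 bases, and there were 0.155 against 0.241 matches per kilobase. The matches fell in the central genes, 8 of 11, against 1 of 12 anterior and 1 of 16 posterior genes. Sites are shown, with the motif in capitals, for the genes with a match that differed in the Quaking knockout at day 10.
Hoxb1, 3′ UTR: tcttttgcACTAATgcagccct
Hoxa13, 3′ UTR: tgcatcatACTAACtgaagaat
Hoxa7, 3′ UTR: tgtattgaACTAATtctgtagt
Hoxb6, 5′ UTR: gctatactACTAATaggcgcgg
Hoxd8, 3′ UTR, upstream match: acttgaaaACTAATtgcaatat
Hoxd8, 3′ UTR, downstream match: atattttcACTAACtattcatt
Of the Hox genes called at day 10 in the Quaking knockout, a match was in 1 of 3 that were higher and 4 of 15 that were lower, and it was in 4 of 18 tested genes that were not called. Most Hox genes that differed carried no such letters in this transcript, and other transcripts were not searched. A match or its absence describes the letters only, and binding by Quaking was not tested.

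In wild-type stem cells nearly all Hox genes were silent or close to it, and after 10 days nearly all were on. A gene is called detected in a group with at least 10 counts in each of its libraries. By this count 6 of 39 Hox genes were detected in wild type at day 0, 11 at day 3 and 36 at day 10, the last being 12 of 12 anterior, 10 of 11 central and 14 of 16 posterior genes. At day 10 the Quaking knockout had 32 and the Sam68-labelled line 25, of which 12 and 7 were posterior. Hoxd3 had no count at day 0 or day 3 in any line. The summed level of the 39 genes in wild type was 8.07 ± 0.362 CPM (SD, n = 3) at day 0, 8.80 ± 1.04 at day 3 and 97.9 ± 10.8 at day 10.

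**Figure D1:**
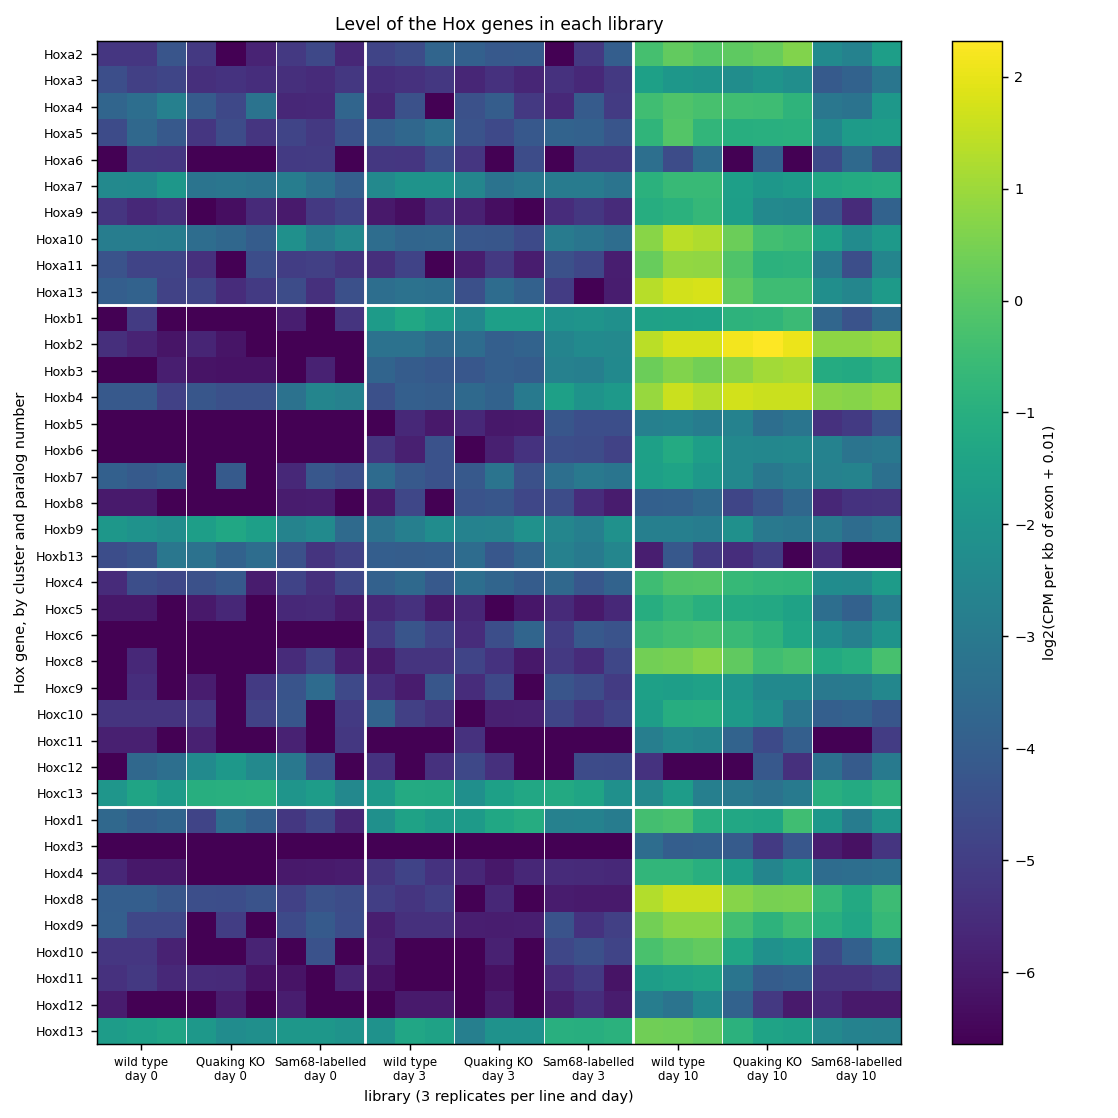
Level of 38 Hox genes in each of the 27 libraries, as log2 of CPM per kilobase of exon plus 0.01; rows are genes by cluster and paralog number, columns are libraries by day and, within a day, by line. Most rows are dark until day 10, when 36 of the 39 members were detected in wild type and 25 in the Sam68-labelled line.

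From day 0 to day 3 in wild type, genes of the Hoxb, Hoxc and Hoxd clusters rose and genes of the Hoxa, Hoxb and Hoxd clusters fell. Of 36 Hox genes tested, 7 rose and 8 fell, beside 30.8% and 30.1% of all genes tested. Only 6 of the 39 members were detected at day 0 and 11 at day 3, and the fit also held the day 10 libraries. Genes near silent at both days were tested through day 10 and had few counts for a call. The totals are therefore not read against the share over all genes. By cluster, 4 of 9 Hoxb genes rose and 1 fell, 2 Hoxc genes rose and 0 fell, 1 Hoxd gene rose and 3 fell, and 0 of 10 Hoxa genes rose and 4 fell. No difference between clusters was tested. No posterior gene rose and 4 of 14 fell. The count that fell was 5 without wild-type day 0 replicate 1 or without day 3 replicate 2.

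Hoxb1, which marks the hindbrain segment rhombomere 4 and the early primitive streak, gave 0, 0.0448 and 0 CPM at day 0 and 0.677, 0.925 and 0.725 at day 3. The day 0 libraries held 3 counts in all, and the ratio of levels was 52.3 (95% counting interval 17.6 to 256). Hoxb2, a hindbrain gene, rose from 0.0448, 0.0299 and 0.0147 CPM to 0.331, 0.332 and 0.252, by 3.19 ± 0.46 on the log2 scale (SE; adjusted p = 3.78e-05). All day 3 libraries were above all day 0 libraries for both genes. Hoxb3, their neighbour, gave 0, 0 and 0.0294 CPM and then 0.271, 0.217 and 0.192, a ratio of 22.8 (5.98 to 194) on 2 counts at day 0. Hoxb4 did not pass the test at this step (0.21 ± 0.51, adjusted p = 0.741).

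Hoxa10, a posterior gene of trunk and uterus, fell from 0.418, 0.418 and 0.412 to 0.271, 0.217 and 0.222 CPM (-0.91 ± 0.31, adjusted p = 0.0215); without day 3 replicate 2 it was -0.84 (adjusted p = 0.0655) and without day 3 replicate 3 it was -0.85 (0.0637). Hoxd8 fell from 0.149, 0.149 and 0.118 to 0.0601, 0.0434 and 0.0592 CPM (-1.42 ± 0.41, adjusted p = 0.00889). In both genes the day 0 and day 3 libraries did not overlap. Hoxd1, at the 3′ end of its cluster, rose from 0.134, 0.104 and 0.118 to 0.406, 0.650 and 0.548 CPM, without overlap (2.06 ± 0.34, adjusted p = 0.000145). Hoxc6, which had no count at day 0, was at least 4.64-fold higher at day 3 against a floor of 3 counts over the group. Hoxc4 rose by 1.13 ± 0.43 (adjusted p = 0.0378) but lost the call without day 0 replicate 1 (0.81, adjusted p = 0.145), day 0 replicate 3 (1.24, 0.0611), day 3 replicate 1 (1.13, 0.0703) or day 3 replicate 2 (0.95, 0.123). Hoxd9 fell by 1.71 ± 0.59 (adjusted p = 0.0224), and by 1.29 (0.146) without day 0 replicate 1 and 1.49 (0.0721) without day 3 replicate 1.

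Hoxb genes rose over this interval in the other lines too. In the Quaking knockout 10 of 34 tested Hox genes rose from day 0 to day 3 and 4 fell, beside 34.2% and 34.8% of all genes. In the Sam68-labelled line 11 of 26 rose and 3 fell, beside 37.0% and 35.9%, and 7 of its 8 tested Hoxb genes were among those that rose. In these lines too, genes near silent at both days were tested through day 10. Hoxb1 had no count in the Quaking knockout at day 0 and gave 0.392, 0.756 and 0.761 CPM at day 3, at least 41.6-fold higher. Hoxb2 had no count at day 0 in the Sam68-labelled line and gave 0.539, 0.640 and 0.615 CPM at day 3, at least 35.4-fold higher. Hoxd13, a gene of digits and genital tubercle, rose there from 0.644, 0.646 and 0.584 to 1.21, 1.18 and 1.28 CPM (0.93 ± 0.17, adjusted p = 9.58e-05), without overlap, and did not pass the test in wild type (-0.14 ± 0.19, adjusted p = 0.546) or the Quaking knockout (-0.31 ± 0.27, adjusted p = 0.32).

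From day 3 to day 10 almost the whole set rose in wild type. Of 36 Hox genes tested, 33 rose and 1 fell, beside 39.6% and 36.5% of all genes. A gene silent at day 3 could be tested only because it was on at day 10, so the 33 describe the size of the rise and not a choice among all members. Every tested Hoxa and Hoxd gene rose (10 of 10 and 9 of 9), as did 7 of 9 Hoxb and 7 of 8 Hoxc genes. The single gene that fell was Hoxc13, a hair and nail gene at the 5′ end of its cluster, from 0.677, 1.07 and 1.04 to 0.437, 0.734 and 0.336 CPM (-1.02 ± 0.28); its libraries overlap. Hoxb1 (-0.08 ± 0.25) and Hoxb9 (-0.23 ± 0.27) did not pass the test.

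Among genes with more than 3 counts at day 3, the largest rises were those of Hoxd8, Hoxd9, Hoxa11 (6.72 ± 0.39, with exons that overlap Hoxa11os) and Hoxc8. Hoxd8 went to 6.64, 8.24 and 8.37 CPM at day 10, a rise of 6.98 ± 0.22 on the log2 scale (adjusted p = 7.57e-12) or 143-fold in mean CPM. Hoxd9 went from 0.015, 0.0289 and 0.0296 to 2.85, 3.49 and 3.52 CPM (6.82 ± 0.31, adjusted p = 2.02e-10). Hoxc8, a thoracic gene, went from 0.015, 0.0434 and 0.0444 to 3.73, 3.90 and 4.51 CPM, a rise of 6.67 ± 0.32 (adjusted p = 3.31e-10). No day 3 library reached the lowest day 10 library in Hoxd8, Hoxd9 or Hoxc8. Hoxd10 and Hoxd11 had 1 count each at day 3 against 375 and 298 at day 10, ratios of 365 (95% counting interval 65.2 to 14470.1) and 290.4 (51.7 to 11507).

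Posterior Hoxa genes and 3 of the 4 anterior Hoxb genes rose too. Hoxa13, the limb bud and hindgut gene at the 5′ end of its cluster, went from 0.210, 0.231 and 0.222 to 6.33, 8.09 and 8.51 CPM, 34.5-fold (4.96 ± 0.21, adjusted p = 1.16e-10). Hoxa10 went to 5.38, 8.47 and 7.79 CPM, 30.5-fold. Hoxb2 went to 9.14, 11.8 and 11.8 CPM, 35.8-fold, and Hoxb4, which is used to expand blood stem cells, from 0.0902, 0.145 and 0.133 to 4.85, 7.85 and 6.32, 51.7-fold. All of these day 10 libraries lay above all day 3 libraries. Hoxb3 rose to 5.24, 6.51 and 5.58 CPM (4.52 ± 0.22).

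Hoxd13, which was already detected in stem cells, went from 0.571, 0.968 and 0.859 to 3.21, 3.09 and 2.79 CPM, 3.79-fold (1.78 ± 0.17, adjusted p = 4.9e-07). In the Hoxc cluster, Hoxc4 reached 1.85, 2.27 and 2.34 CPM (3.67 ± 0.25) and Hoxc6 reached 1.66, 1.82 and 1.93 CPM (4.54 ± 0.28). Hoxc11 and Hoxd3 had no count at day 3 and were at least 21.4-fold and 18.2-fold higher at day 10.

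**Figure D2:**
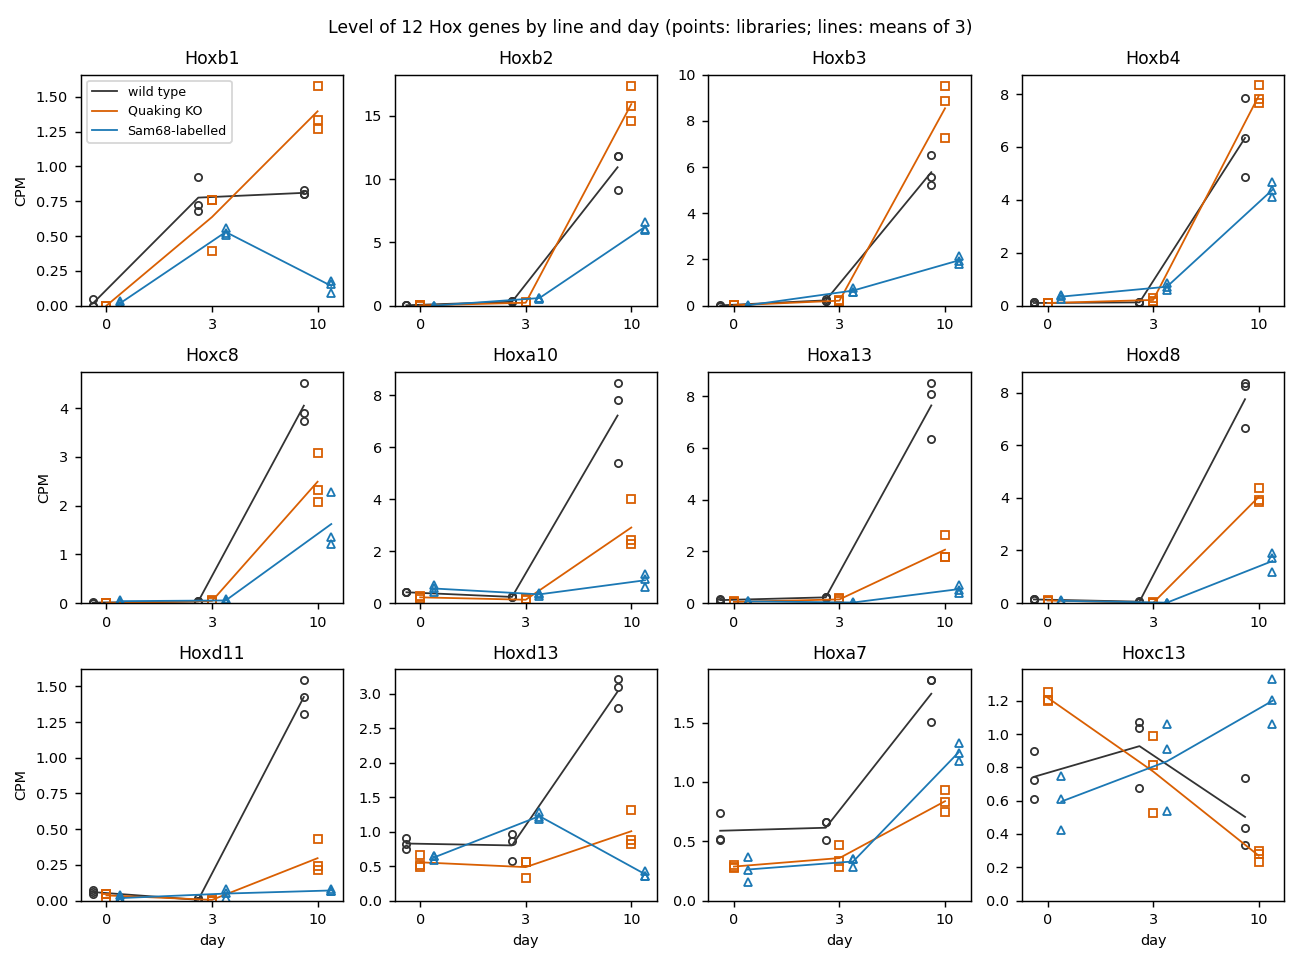
Level in CPM of 12 Hox genes in each library at days 0, 3 and 10, with lines through the group means, coloured by line. Hoxa13 and Hoxd11 reach 6.33 to 8.51 and 1.31 to 1.54 CPM in wild type at day 10, against 0.401 to 0.707 and 0.0647 to 0.0816 CPM in the Sam68-labelled line, while Hoxb1 to Hoxb3 are highest in the Quaking knockout at day 10.

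Per kilobase of exon, the scale on which genes can be compared, the order in wild type at day 10 did not follow paralog number. Hoxb2 (3.13 ± 0.444 CPM per kb, SD, n = 3), Hoxa13 (3.09 ± 0.469) and Hoxd8 (2.82 ± 0.351) were among the highest, and they differed by less than 1 SD. Hoxb4 (2.47 ± 0.584) and Hoxa10 (2.21 ± 0.497) came next, within their spread of each other. Then Hoxa11 (1.58 ± 0.348), Hoxd9 (1.54 ± 0.177), Hoxc8 (1.43 ± 0.145) and Hoxb3 (1.36 ± 0.154) also lay within 1 SD of the next in this row, with Hoxd13 at 1.22 ± 0.087. The lowest were Hoxc12 (0.00487) and Hoxb13 (0.0236), both of which lie at or next to the 5′ end of their cluster.

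Exons that overlap another gene matter for some of these levels, since the strand setting of the counting is not given in the sources used here. Hoxd3 and Hoxd4 share 62.3% and 52.3% of their exon bases with other genes on the same strand. Hoxb3 and Hoxb2 overlap Hoxb3os on the other strand over 52.9% and 27.3% of their exon bases, Hoxa11 overlaps Hoxa11os over 35.0%, and Hoxa7 overlaps Hoxaas3 over 20.4%. The other gene's reads cannot be told apart from theirs there. No exon base is shared by 23 members, among them Hoxb1, Hoxb4, Hoxa10, Hoxa13, Hoxd8, Hoxd9 and Hoxd13.

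In stem cells the 2 knockout lines differed from wild type in a few of the Hox genes that were on. In the Quaking knockout 3 of 9 tested Hox genes were higher and 3 lower, beside 19.4% and 20.3% of all genes tested. All 3 that were higher were posterior, but so were most of the 9 tested genes. Among the lower ones Hoxa10 and Hoxd13 were posterior too. In the Sam68-labelled line 1 was higher and 5 were lower, beside 36.5% and 37.9%. The filter on low counts kept 9 of 39 members at day 0. Without it 35 were tested, and the Sam68-labelled line then had 2 higher and 10 lower.

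Hoxc13 gave 1.20, 1.20 and 1.25 CPM in the Quaking knockout against 0.612, 0.896 and 0.721 in wild type (0.74 ± 0.18, adjusted p = 0.00251). Hoxc12, its neighbour, gave 0.190, 0.271 and 0.183 against 0, 0.0746 and 0.0883 CPM (1.97 ± 0.59, adjusted p = 0.0114), and 1.78 (adjusted p = 0.0511) without knockout replicate 2. Neither gene's libraries overlapped between the lines. Hoxc12 reached 10 counts in each library of the Quaking knockout alone. It thus passed the filter on low counts through the group where it was high, so its call describes the size of the difference only. Hoxa7, a trunk gene, was lower with 0.284, 0.301 and 0.275 against 0.508, 0.522 and 0.736 CPM (-1.01 ± 0.26, adjusted p = 0.00451), and Hoxa10 with 0.269, 0.226 and 0.168 CPM (-0.88 ± 0.28, adjusted p = 0.0173), both without overlap. Hoxa10 did not pass under DESeq2 (-0.87, adjusted p = 0.0537) or without knockout replicate 3 (-0.71, 0.0864).

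Hoxb9, the gene called in opposite directions, gave 0.657, 0.582 and 0.515 CPM in wild type, 0.821, 1.02 and 0.839 in the Quaking knockout and 0.386, 0.476 and 0.195 in the Sam68-labelled line. The wild-type libraries lay between those of the 2 other lines with no overlap. Its log2 fold change was 0.64 ± 0.21 (adjusted p = 0.0200) in the Quaking knockout and -0.84 ± 0.26 (adjusted p = 0.00638) in the Sam68-labelled line. The first of these did not pass without wild-type replicate 2 (0.63, adjusted p = 0.0547) or 3 (0.56, 0.0675) or without knockout replicate 2 (0.54, 0.089). Hoxd13 was lower in both lines, at 0.663, 0.482 and 0.519 CPM (-0.55 ± 0.18, adjusted p = 0.0231) and at 0.644, 0.646 and 0.584 CPM (-0.53 ± 0.18, adjusted p = 0.0146), against 0.746, 0.821 and 0.913 in wild type. Under DESeq2 neither Hoxd13 call passed (adjusted p = 0.0995 and 0.0547), nor without wild-type replicate 3 (-0.47, 0.0848; -0.45, 0.057), Quaking knockout replicate 2 (-0.45, 0.105) or 3 (-0.49, 0.0831), or Sam68-labelled replicate 3 (-0.48, 0.0509).

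In the Sam68-labelled stem cells Hoxa7 was at 0.370, 0.255 and 0.159 CPM, below every wild-type library (-1.27 ± 0.27, adjusted p = 0.000324). Hoxb4 was the gene that was higher, with 0.241, 0.408 and 0.372 against 0.119, 0.119 and 0.0589 CPM (1.63 ± 0.34, adjusted p = 0.000302), also without overlap. Of the day 0 groups, Hoxb4 reached 10 counts in each library of this line alone. It too was tested through the group where it was high. Hoxb13, a tail-end gene, was called lower (-1.34 ± 0.54, adjusted p = 0.033) at 0.0805, 0.0340 and 0.0531 CPM against 0.0746, 0.0896 and 0.236, but the libraries overlapped and the call rested on single libraries: it was -0.65 (adjusted p = 0.335) without wild-type replicate 3, -1.08 (0.117) without Sam68-labelled replicate 2, -1.30 (0.0759) without replicate 3 and -1.38 (0.0734) under DESeq2. The number that was lower was 3 of the tested Hox genes without wild-type replicate 3.

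The day 0 counts of the Quaking knockout depended on single libraries in the same way: 1 Hox gene was higher without its replicate 2, and 1 was lower without its replicate 3.

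At day 3 no Hox gene passed the test between the Quaking knockout and wild type, while the Sam68-labelled line had more Hoxb and less Hoxa RNA. For the Quaking knockout 0 of 15 tested Hox genes were called by edgeR, beside 3.08% of all genes tested called higher and 3.93% lower. An unadjusted p under 0.05 was found for 4 of them, 1 higher and 3 lower, and DESeq2 called 0. Hoxa7 had the smallest adjusted p (0.0659), at 0.465, 0.280 and 0.330 against 0.511, 0.665 and 0.666 CPM in wild type (-0.75 ± 0.23), without overlap. Hoxd13 followed with -0.69 ± 0.23 (adjusted p = 0.0845). Without wild-type replicate 1, 2 Hox genes were called lower, and without knockout replicate 1, 1 was. These 2 libraries stood apart at day 3 in the share of counts on the mitochondrial ribosomal RNA mt-Rnr2, which was 9.53% in wild-type replicate 1 against 6.54% and 5.82%, and 10.96% in knockout replicate 1 against 5.64% in each of the others. In the Sam68-labelled line it was 10.65% to 11.1%. The part of this share in the day 3 results was not tested.

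In the Sam68-labelled line at day 3, 5 of 15 tested Hox genes were higher and 5 lower than in wild type, beside 36.0% and 37.1% of all genes, so the shares are near the background. The division by cluster was 4 higher and 1 lower of 7 Hoxb genes and 0 higher and 3 lower of 4 Hoxa genes. The summed level of the Hoxb cluster was 3.61 CPM against 2.08 in wild type, and that of the Hoxa cluster 2.14 against 3.90. The difference in the Hoxa sum lay largely in a single member, and Hoxa10 was not called (0.336 against 0.237 CPM in wild type).

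Hoxb4 gave 0.842, 0.592 and 0.710 CPM against 0.0902, 0.145 and 0.133 (2.43 ± 0.30, adjusted p = 2.54e-06), and Hoxb3 gave 0.606, 0.576 and 0.773 against 0.271, 0.217 and 0.192 (1.43 ± 0.24, adjusted p = 6.25e-05). Hoxb13 gave 0.320, 0.256 and 0.363 against 0.120, 0.116 and 0.118 CPM (1.31 ± 0.31, adjusted p = 0.00153). Every Sam68-labelled library was above every wild-type library for these 3 genes. Of the day 3 groups, Hoxb13 reached 10 counts in each library of this line alone. It was therefore tested through the group where it was high. Hoxb2 was higher too (0.88 ± 0.23), while Hoxb1, the 3′ neighbour, was lower (-0.64 ± 0.24, adjusted p = 0.023) at 0.522, 0.560 and 0.505 CPM.

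Hoxa13 gave 0.0505, 0 and 0.0158 CPM, 4 counts in all against 45 in wild type (-3.33 ± 0.57, adjusted p = 8.16e-05). Hoxd1, the gene at the 3′ end of its cluster, gave 0.269, 0.272 and 0.237 against 0.406, 0.650 and 0.548 CPM (-1.13 ± 0.26, adjusted p = 0.00115). The libraries of the 2 lines did not overlap in either gene. Hoxa13 reached 10 counts in each library of wild type alone at day 3, so it was tested through the group where it was high.

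Set directly against the Quaking knockout at day 3, the Sam68-labelled line had 6 of 15 tested Hox genes higher and 3 lower, beside 35.3% and 36.8% of all genes. Hoxb3 (1.48 ± 0.24, adjusted p = 4.79e-05), Hoxb4 (1.61 ± 0.26, adjusted p = 5.36e-05) and Hoxb2 (1.26 ± 0.24, adjusted p = 0.000189) were again higher, and Hoxd1 (-1.55 ± 0.25, adjusted p = 4.42e-05) was again lower. Hoxd13 gave 1.21, 1.18 and 1.28 CPM there against 0.334, 0.560 and 0.560 in the Quaking knockout, with no overlap (1.22 ± 0.22, adjusted p = 0.000117). For Hoxb2 the Quaking knockout libraries were at 0.276, 0.196 and 0.215 CPM, for Hoxb3 at 0.189, 0.238 and 0.215, for Hoxb4 at 0.189, 0.154 and 0.301, and for Hoxd1 at 0.537, 0.728 and 0.847.

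At day 10 the Quaking knockout had less posterior Hox RNA than wild type, and slightly more of the most anterior Hoxb genes. Of 36 Hox genes tested, 15 were lower and 3 higher, beside 6.71% and 4.96% of all genes tested. In this line 32 of the 39 members were detected, against 36 in wild type. Tested genes not detected in this line passed the filter because they were on in wild type. The lower genes were 10 of 14 posterior, 4 of 10 central and 1 of 12 anterior genes, and the 3 higher ones were Hoxb1, Hoxb2 and Hoxb3. The median log2 fold change was -1.29 over posterior, -0.59 over central and -0.07 over anterior genes, against -0.02 over all genes. By cluster, 7 of 9 Hoxd, 5 of 10 Hoxa, 2 of 9 Hoxb and 1 of 8 Hoxc genes were lower. Counting all 39 members, every knockout library was below every wild-type library for 24 genes and above for 3. The share of all genes without such overlap was not taken, so these counts have no background beside them. Among the 20 tested genes that share no exon with another gene, 9 were lower and 1 higher.

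Hoxa13 gave 6.33, 8.09 and 8.51 CPM in wild type and 2.63, 1.79 and 1.78 in the Quaking knockout (-1.88 ± 0.19, adjusted p = 0.000308). Hoxd11, a forearm gene, gave 1.31, 1.43 and 1.54 against 0.433, 0.217 and 0.240 CPM (-2.24 ± 0.24, adjusted p = 0.000308). Hoxd13 gave 3.21, 3.09 and 2.79 against 1.31, 0.885 and 0.819 CPM (-1.58 ± 0.18, adjusted p = 0.00051). In each the groups were far apart, and replicate 1 of the knockout was the highest of its group.

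Hoxd10, a motor neuron and limb gene, gave 1.52, 1.85 and 2.00 CPM in wild type against 0.698, 0.404 and 0.466 (-1.76 ± 0.29, adjusted p = 0.00306). Hoxd9 gave 1.59, 1.16 and 1.51 CPM in the knockout, below the wild-type libraries given above (-1.20 ± 0.19, adjusted p = 0.00243). Hoxa7, the central gene, gave 1.51, 1.86 and 1.86 against 0.936, 0.745 and 0.833 CPM (-1.05 ± 0.16, adjusted p = 0.00211). No library crossed between the groups for these genes. Hoxa10 gave 3.99, 2.44 and 2.29 CPM against 5.38 to 8.47 in wild type (-1.30 ± 0.24, adjusted p = 0.0062), and Hoxd8 was at 4.37, 3.83 and 3.91 CPM (-0.93 ± 0.15, adjusted p = 0.0033).

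The anterior Hoxb genes went the other way. Hoxb2 gave 15.8, 17.4 and 14.6 CPM against 9.14, 11.8 and 11.8 (0.55 ± 0.11, adjusted p = 0.0105), Hoxb3 gave 7.25, 8.85 and 9.53 against 5.24, 6.51 and 5.58 (0.57 ± 0.13, adjusted p = 0.0159), and Hoxb1 gave 1.27, 1.34 and 1.58 against 0.798, 0.805 and 0.827 (0.79 ± 0.18, adjusted p = 0.0177). The groups did not overlap for any of them. These 3 calls are less secure than the lower ones: without knockout replicate 2 none passed (Hoxb1 0.82, adjusted p = 0.054; Hoxb2 0.47, 0.0501; Hoxb3 0.54, 0.0652), without knockout replicate 3 only Hoxb2 did (Hoxb1 0.70, 0.0648; Hoxb3 0.50, 0.056), and without wild-type replicate 2 Hoxb1 did not (0.79, 0.0585). Hoxb4 (0.33, adjusted p = 0.19) and Hoxa2 (0.40, 0.31) did not pass the test.

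The fold change in the Quaking knockout was ordered by paralog number. Spearman's rho between paralog number and log2 fold change was -0.786 over the 36 tested genes, and within clusters it was -0.939 for Hoxa (10 genes), -0.767 for Hoxb (9), -0.833 for Hoxc (8) and -0.833 for Hoxd (9). These are descriptions across genes of the same 6 libraries, and neighbouring genes are not independent. Within Hoxd, the posterior genes Hoxd9 to Hoxd13 lay between -2.24 and -1.20, and within Hoxa the anterior genes lay between -0.34 and 0.40. Hoxb9, the only posterior Hoxb gene tested, was at 0.15 (adjusted p = 0.81).

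**Figure D3:**
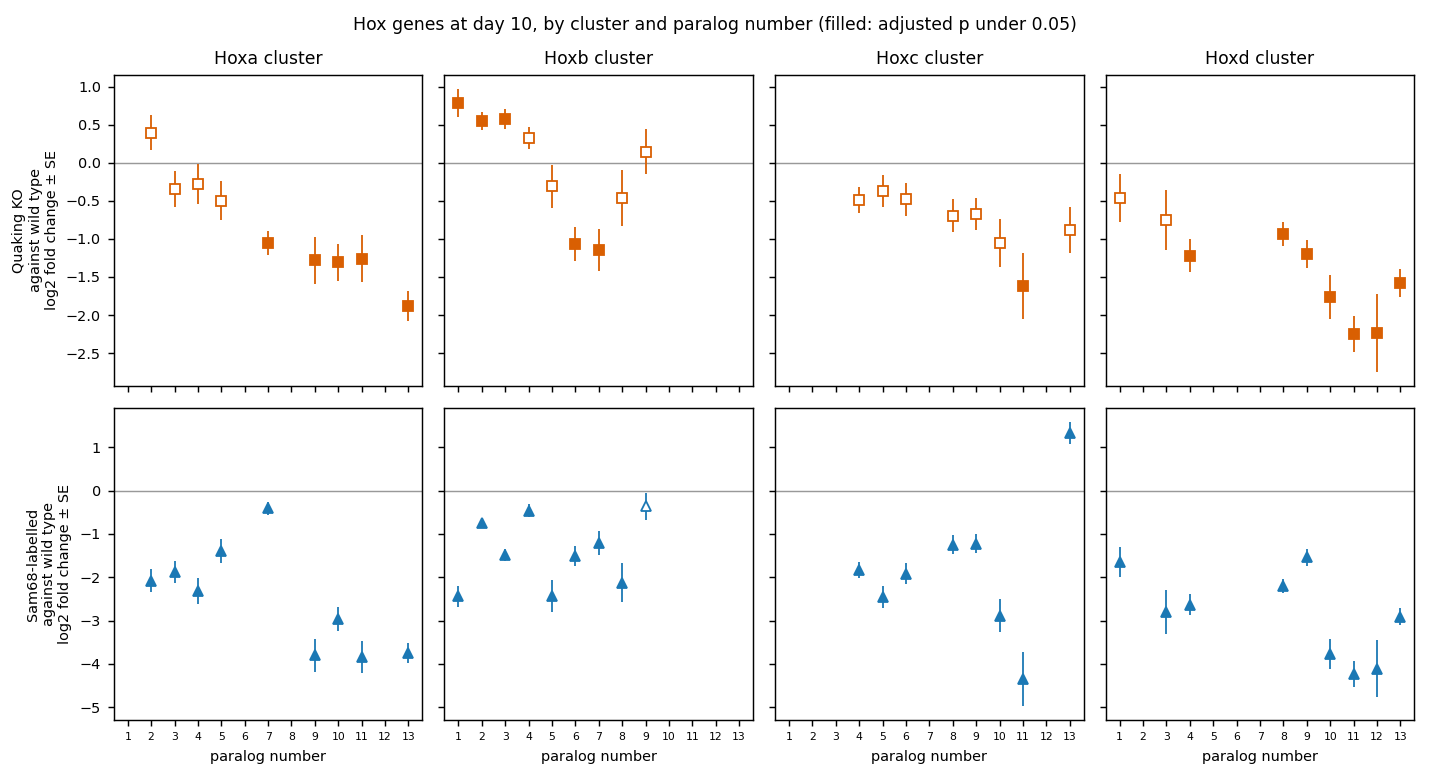
Log2 fold change against wild type at day 10 (± SE) by paralog number, for 35 of the 36 tested genes in the 4 clusters and both knockout lines; filled points have an adjusted p under 0.05. In the Quaking knockout (Spearman's rho -0.786 over 36 genes) the points step down toward high numbers from Hoxb1 to Hoxb3 above 0, and in the Sam68-labelled line all plotted points but those of Hoxb9 and Hoxc13 are called lower.

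In the Sam68-labelled line at day 10 Hox RNA was lower across all clusters. Of 36 Hox genes tested, 34 were lower and 1 was higher, beside 27.8% and 22.8% of all genes tested: 12 of 12 anterior, 10 of 10 central and 12 of 14 posterior genes were lower. In this line 25 of the 39 members were detected, against 36 in wild type. Genes near silent here were tested only because they were on in another line. The 34 therefore describe the size of the difference and not a choice among all members. The median log2 fold change was -2.10 over the Hox genes and -0.04 over all genes, and it was -1.85, -1.71 and -3.36 over anterior, central and posterior genes. Every library of the line was below every wild-type library for 35 of the 39 members. For this count too the share over all genes was not taken. Among the 20 tested genes that share no exon, 18 were lower and 1 higher. Spearman's rho with paralog number was -0.407 over all 36 genes, with 0.300 in Hoxb and 0.0714 in Hoxc, and the difference in rho between the lines was not tested.

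Hoxa13 gave 0.511, 0.401 and 0.707 CPM in this line, against 6.33 to 8.51 in wild type (-3.75 ± 0.22, adjusted p = 3.62e-07), and Hoxa10 gave 1.10, 0.621 and 0.911 (-2.97 ± 0.27, adjusted p = 6.18e-06). Hoxd11 gave 0.0655, 0.0647 and 0.0816 CPM, against 1.31 to 1.54 (-4.23 ± 0.29, adjusted p = 9.33e-07). Hoxd13 gave 0.432, 0.362 and 0.354 CPM, against 2.79 to 3.21 (-2.91 ± 0.20, adjusted p = 9.39e-07). In each of these posterior genes the highest library of the line was far below the lowest wild-type library.

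Hoxd10 gave 0.0524, 0.104 and 0.218 CPM (-3.77 ± 0.35, adjusted p = 6.86e-06) and Hoxd8 gave 1.70, 1.18 and 1.92 CPM, against 6.64 to 8.37 in wild type (-2.21 ± 0.16, adjusted p = 1.49e-06). Hoxc11 had 3 counts in all against 66 in wild type, a ratio of 0.0417 (95% counting interval 0.00839 to 0.127). In the Hoxc cluster, Hoxc8 was at 1.22, 1.36 and 2.29 CPM, Hoxc4 at 0.498, 0.492 and 0.748 and Hoxc6 at 0.471, 0.337 and 0.558, all below the wild-type libraries given above.

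Anterior Hoxb genes differed less, apart from Hoxb1. Hoxb2 gave 6.08, 5.99 and 6.61 CPM (-0.74 ± 0.12, adjusted p = 0.000328), Hoxb3 gave 1.93, 1.81 and 2.14 (-1.49 ± 0.14, adjusted p = 7.2e-06), and Hoxb4 gave 4.36, 4.12 and 4.67 (-0.46 ± 0.15, adjusted p = 0.0242). Hoxb1 gave 0.157, 0.0906 and 0.177 CPM, against 0.798 to 0.827 in wild type (-2.44 ± 0.24, adjusted p = 1.08e-05). All 4 genes were below every wild-type library. Hoxa7 gave 1.18, 1.24 and 1.33 CPM (-0.41 ± 0.15, adjusted p = 0.0417), among the smallest differences of the set.

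The exceptions were Hoxc13 and Hoxb9. Hoxc13 gave 1.20, 1.06 and 1.33 CPM in the Sam68-labelled line against 0.437, 0.734 and 0.336 in wild type, with no overlap (1.32 ± 0.26, adjusted p = 0.0013). Hoxb9 gave 0.288, 0.207 and 0.258 against 0.346, 0.353 and 0.322 CPM and did not pass the test (-0.37 ± 0.31, adjusted p = 0.349).

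Set directly against each other at day 10, the Sam68-labelled line was lower than the Quaking knockout in 27 of 36 tested Hox genes and higher in 2, beside 30.7% and 25.9% of all genes. All 12 anterior genes were lower. Genes near silent in the Sam68-labelled line were again tested because they were on in another line. Hoxb1 differed by -3.23 ± 0.23 (adjusted p = 7.38e-07), Hoxb3 by -2.06 ± 0.14 (adjusted p = 4.94e-07) and Hoxb2 by -1.29 ± 0.12 (adjusted p = 4.25e-06), the 3 genes called higher than wild type in the one line and lower in the other. Hoxa2, the hindbrain and second-arch gene, gave 0.327, 0.259 and 0.558 CPM against 1.89, 2.08 and 2.70 in the Quaking knockout (-2.48 ± 0.27, adjusted p = 1.48e-05). Hoxc5 gave 0.262, 0.181 and 0.395 against 1.35, 1.29 and 1.07 CPM (-2.09 ± 0.25, adjusted p = 3.76e-05). The 2 genes that were higher in the Sam68-labelled line were Hoxc13 (2.21 ± 0.28), with 0.279, 0.233 and 0.296 CPM in the Quaking knockout, and Hoxa7 (0.64 ± 0.16).

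Both comparisons with wild type share its 3 libraries. With that in view, the 15 Hox genes called lower in the Quaking knockout at day 10 were all called lower in the Sam68-labelled line as well, and are 15 of the 34 there.

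Summed by class, the lines separated most in the posterior genes. Posterior Hox RNA at day 10 was 28.7, 36.9 and 36.8 CPM in wild type, 16.7, 10.7 and 10.6 in the Quaking knockout and 5.71, 4.25 and 6.60 in the Sam68-labelled line, with no overlap between any of the lines. Central Hox RNA was 20.1 ± 1.97 CPM (SD, n = 3), 11.8 ± 1.31 and 6.25 ± 1.17 in the same order. Anterior Hox RNA was 43.7 ± 4.45, 52.4 ± 1.33 and 20.6 ± 1.58 CPM. The posterior share of all Hox RNA was 34.8 ± 1.43% in wild type, 16.4 ± 3.66% in the Quaking knockout and 16.9 ± 1.89% in the Sam68-labelled line, in lines whose total Hox RNA was 97.9 ± 10.8, 76.9 ± 3.93 and 32.4 ± 3.86 CPM. The Hoxb cluster alone was higher in the Quaking knockout than in wild type (35.2 against 26.0 CPM). No test was made on these sums.

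**Figure D4:**
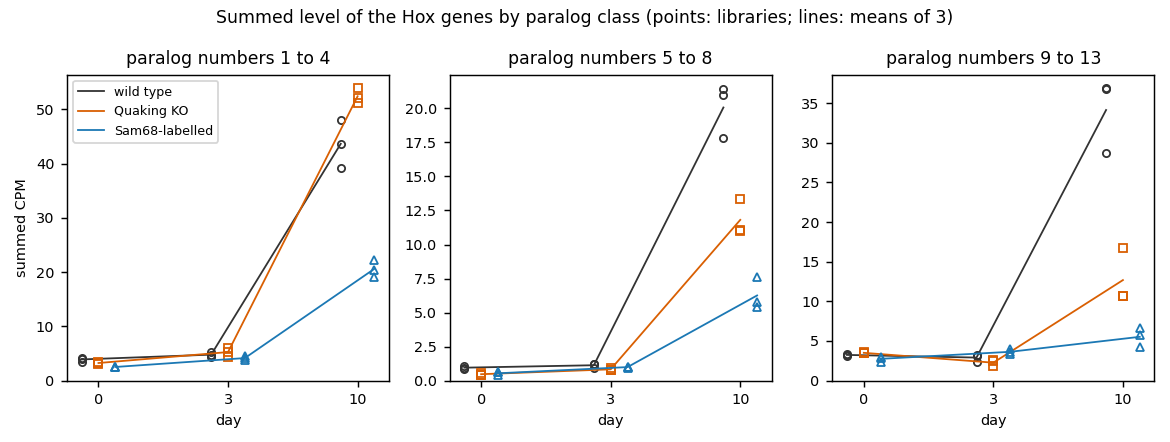
Summed CPM of the anterior, central and posterior Hox genes in each library by day and line. At day 10 the posterior sums are 28.7 to 36.9 CPM in wild type, 10.6 to 16.7 in the Quaking knockout and 4.25 to 6.60 in the Sam68-labelled line.

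The change from day 3 to day 10 was then compared between lines by an interaction term. In the Quaking knockout itself 28 of 34 tested Hox genes rose over this interval and 2 fell, beside 41.1% and 37.0% of all genes. Hoxb1, which did not pass the test over this interval in wild type, rose there by 1.03 ± 0.23 (adjusted p = 0.0018), and Hoxd13 rose by 0.95 ± 0.25 (adjusted p = 0.00331). The 2 genes that fell were Hoxb13 (-2.53) and Hoxc13 (-1.62). The interaction of the Quaking knockout with wild type was called for 0 of 36 Hox genes by edgeR, beside 2.03% of all genes called higher and 1.55% lower. Of these 36, 7 had an unadjusted p under 0.05, and DESeq2 called 1 higher and 1 lower. The smallest adjusted p was that of Hoxb1 (1.06 ± 0.31, 0.0788), followed by Hoxb2 (0.95 ± 0.30, 0.0987) and Hoxa13 (-1.27 ± 0.42, 0.116). The day 10 differences of this line are therefore not shown to have arisen after day 3.

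In the Sam68-labelled line the rise from day 3 to day 10 was smaller than in wild type for most Hox genes. Within the line 21 of 26 tested genes rose and 4 fell, beside 43.5% and 42.5% of all genes. Against wild type the interaction was called lower for 22 of 37 Hox genes and higher for 3, beside 23.9% and 30.3%, and higher for 1 without Sam68-labelled day 3 replicate 2. Genes near silent in the other groups, such as Hoxd11, entered this test only through wild type at day 10, where they were on. Hoxd13 fell in this line, from 1.21, 1.18 and 1.28 CPM at day 3 to 0.432, 0.362 and 0.354 at day 10 (-1.59 ± 0.17, adjusted p = 2.38e-07), where it rose in wild type. Its interaction was -3.35 ± 0.26 (adjusted p = 1.94e-07).

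Hoxb3 went from 0.606, 0.576 and 0.773 to 1.93, 1.81 and 2.14 CPM (interaction -2.84 ± 0.26, adjusted p = 8.63e-07), and Hoxb4, which started higher, had an interaction of -2.82 ± 0.36 (adjusted p = 1.48e-05). Hoxa10 went from 0.404, 0.336 and 0.268 to 1.10, 0.621 and 0.911 CPM (interaction -3.30 ± 0.41, adjusted p = 1.39e-05). Hoxd11 (-6.99 ± 0.97, adjusted p = 3.47e-05) and Hoxb5 (-4.93 ± 0.74, adjusted p = 6.54e-05) rest on very low day 3 counts in wild type, so their size is poorly fixed. Hoxb1 fell within the line (-1.81 ± 0.30). Among the 3 genes whose change was higher than in wild type were Hoxc13 (1.64 ± 0.40) and Hoxa7 (0.66 ± 0.26).

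The genes that act with or upstream of Hox were read from lists beside the members. Of the 9 Pbx, Meis and Pknox cofactors, 0 were called in the Quaking knockout at day 10; in the Sam68-labelled line 4 were lower and 0 higher, beside 27.8% lower and 22.8% higher over all genes.

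Among these, Meis2 was at 86.9 ± 8.37 CPM in the Sam68-labelled line and 179 ± 6.86 in wild type (-0.97 ± 0.09, adjusted p = 4.9e-06), Meis1 differed by -0.80 ± 0.08 and Pbx3 by -1.15 ± 0.08. Of 13 tested upstream regulators at day 10, the Quaking knockout had 1 lower and 0 higher, and the Sam68-labelled line 6 lower and 2 higher, beside 6.71% lower and 4.96% higher, and 27.8% and 22.8%, over all genes. Aldh1a2, the enzyme that makes retinoic acid in the embryo, was at 1.84 ± 0.616 CPM in the Sam68-labelled line against 16.0 ± 2.61 in wild type and 18.6 ± 3.44 in the Quaking knockout (Sam68-labelled against wild type -3.05 ± 0.23, adjusted p = 1.59e-06). The retinoic acid receptor Rarg was also lower, at 12.2 ± 0.379 against 25.8 ± 0.582 CPM. Cdx2, which opens posterior Hox genes, was at 1.27 ± 0.13 CPM in that line at day 3 against 4.45 to 7.44 in the wild-type libraries (-2.32 ± 0.21, adjusted p = 1.14e-07), and at day 10 at 24.6 ± 0.89 against 11.9 ± 1.09 (1.12 ± 0.08, adjusted p = 1.54e-06). In the Quaking knockout Cdx2 did not pass the test at either day (-0.09 ± 0.17 and -0.20 ± 0.08). Kmt2a, a histone methyltransferase that keeps Hox genes active, was at 211 ± 3.11 CPM in the Sam68-labelled line at day 3 against 73.2 ± 7.43 (1.44 ± 0.07). Of 13 upstream regulators tested at day 3, 5 were higher and 6 lower in that line, beside 36.0% and 37.1% of all genes. In the Quaking knockout 2 were higher and 1 lower, beside 3.08% and 3.93%. Of 13 Polycomb genes, 2 were lower and 0 higher in the Quaking knockout at day 10, and 5 were lower and 2 higher in the Sam68-labelled line, which is near those shares over all genes. At day 3, 8 of the 13 were higher and 5 lower in the Sam68-labelled line. In the Quaking knockout at day 3, 1 was higher and 0 lower. The part of these genes in the Hox differences was not tested.

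Noncoding and neighbouring genes of the clusters were read in the same way. Of 8 tested noncoding genes within the clusters at day 10, 3 were lower in the Quaking knockout and 8 in the Sam68-labelled line, with 0 higher in either. Over all genes 6.71% and 27.8% were lower. Hottip, which lies beside Hoxa13, differed by -2.01 ± 0.39 (adjusted p = 0.0112) in the Quaking knockout and had no count in the Sam68-labelled line against 50 counts in wild type. Hoxa11os, antisense to Hoxa11, was at 0.799 ± 0.11 CPM in wild type, 0.196 ± 0.134 in the Quaking knockout and 0.0225 ± 0.0284 in the Sam68-labelled line. Of 10 tested neighbouring genes at day 10, 2 were lower and 0 higher in the Quaking knockout (median log2 fold change -0.03). In the Sam68-labelled line 5 were lower and 1 higher (median -0.30), beside 27.8% and 22.8% of all genes. The neighbouring genes summed to 262 CPM in wild type, 254 in the Quaking knockout and 252 in the Sam68-labelled line. Among them Evx2, a homeobox gene beside Hoxd13, was at 0.920 ± 0.195 CPM in wild type, 0.272 ± 0.0528 in the Quaking knockout (-1.75 ± 0.27, adjusted p = 0.00227) and 0.0531 ± 0.0236 in the Sam68-labelled line (-4.01 ± 0.34, adjusted p = 3.94e-06). At day 3 Hoxb3os, which overlaps Hoxb3 and Hoxb2, was higher in the Sam68-labelled line (1.84 ± 0.30), as they were.

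Markers of embryoid body cell types differed between the same groups. Over all genes at day 10, 6.71% were lower and 4.96% higher in the Quaking knockout. In the Sam68-labelled line the shares were 27.8% and 22.8%. At day 10 the summed level of 9 cardiac markers was 1536 to 1594 CPM in wild type, 421 to 873 in the Quaking knockout and 3070 to 3343 in the Sam68-labelled line, with 8 of 9 tested lower in the Quaking knockout and 7 higher in the Sam68-labelled line. Mesenchyme markers summed to 6355 to 8045, 4507 to 6628 and 2408 to 3859 CPM in that order, with 2 higher and 2 lower of 8, and 1 higher and 6 lower. Blood markers summed to 502 to 651, 371 to 479.9 and 145 to 212 CPM, with 2 and 7 of 7 lower. Endothelium markers summed to 341 to 354, 284 to 316 and 234 to 244 CPM. Of these 6, 2 were lower in the Quaking knockout, and 3 were lower and 1 higher in the Sam68-labelled line. Neural markers summed to 81.9 to 90.9, 101 to 154 and 52.9 to 68.3 CPM, with 2 of 8 higher in the Quaking knockout and 3 lower in the Sam68-labelled line. Extraembryonic endoderm markers summed to 2598 to 3556, 1922 to 2088 and 3137 to 3959 CPM, with 6 of 10 lower in the Quaking knockout and 6 higher and 2 lower in the Sam68-labelled line.

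At day 3 primitive streak markers summed to 520.4 to 807 CPM in wild type, 330 to 589 in the Quaking knockout and 71.5 to 118 in the Sam68-labelled line, where 7 of 7 were lower. The Brachyury gene is on that list. Over all genes, 37.1% were lower in the Sam68-labelled line at day 3. The part of cell composition in the Hox differences was not tested.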

How the data were processed

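Total RNA depleted of ribosomal RNA was sequenced as paired 125-base reads from a stranded kit, per the labels' protocols. Reads were handled with bcl2fastq 2.17.1.14 and STAR 2.5.3a on GRCm38 (mm10), per the submitters' processing notes. How reads were counted (program, strand option, annotation) is not given in the sources used here. The authors deposited 1 file per library of whole-number counts for each gene identifier, not normalised, and 53.5% of nonzero counts were odd. Identifiers were matched without version to GENCODE M21 (99.6%).

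The 9 libraries of a day, or of a line, were fitted together with edgeR 4.0.16 (R 4.3.3): filterByExpr with a minimum count of 10 and a total of 15, TMM scaling and the quasi-likelihood test, with Benjamini-Hochberg adjustment over all genes tested and calls at an adjusted p under 0.05. The SE is the absolute log2 fold change divided by the square root of F. Interactions used the 12 libraries of 2 lines at days 3 and 10. At day 10 the fit, tested on simulated data for the Quaking knockout comparison (20260 genes), recovered 85% of changes of 1 and 100% of changes of 2 on the log2 scale, with 2.6% false among the genes called. For wild type from day 3 to day 10 (20504 genes) it recovered 91.9% and 98%, with 8.3% false among the genes called, more than the threshold allows for. The changed genes were drawn from all genes averaging at least 10 counts, and every gene was given the same spread. These rates therefore do not hold for Hox genes with fewer counts or a wider spread.

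Every library's value is printed for the 6 called members with the smallest p in each line comparison, the 3 highest members per cluster in wild type at day 10 per kilobase of exon, and members called in opposite directions; 1 member is not reported singly here, and others were added after their values were seen. The members and lists were chosen with earlier results of these data known. Intervals, at 95%, and the floor of 3 counts cover counting error only. The alternatives were DESeq2 1.42.0, no filter on low counts, scaling on protein-coding genes, only the 2 groups compared, a replicate block and leaving out each library. Tables were made with Python 3.11.15 and pandas 2.3.3.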

Additional observations from a re-analysis of the deposited data

Results flagged for a closer look

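These Hox results are listed because 2 groups' effects differed in a test of the difference itself. The change from day 3 to day 10 differed between the Sam68-labelled line and wild type, and was lower than in wild type for 22 Hox genes and higher for 3. The difference in log2 change was -3.35 for Hoxd13, -2.84 for Hoxb3 and -3.30 for Hoxa10, and it was 1.64 for Hoxc13 and 0.66 for Hoxa7. The knockout lines differed from each other at day 10 in the 3 Hoxb genes that were higher than wild type in the Quaking knockout and lower in the Sam68-labelled line: by -3.23 for Hoxb1, -1.29 for Hoxb2 and -2.06 for Hoxb3 (Sam68-labelled minus Quaking knockout, log2). These 3 genes are listed for their opposite calls on the same libraries, so the direct difference is not separate support. None of the 3 was called higher than wild type without Quaking knockout replicate 2.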

How the results depend on the processing

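Scaling on protein-coding genes and fitting only the 2 groups compared changed no direction and no call of a named Hox gene (116 and 43 values). Counts of Hox genes called moved by more than 1.5 times as follows. Under DESeq2, 1 gene was lower in the Quaking knockout at day 0 and 3 in the Sam68-labelled line, and the Quaking interaction had 1 higher and 1 lower. With no filter on low counts, 2 were higher and 10 lower in the Sam68-labelled line at day 0, 2 were lower in the Quaking knockout at day 3, 2 were higher in the Sam68-labelled line at day 10, and the Quaking interaction had 2 higher and 1 lower. Leaving out 1 library at a time, the counts ranged from 1 to 3 higher and 1 to 4 lower (Quaking knockout, day 0), 3 to 6 lower (Sam68-labelled line, day 0), 0 to 2 lower (Quaking knockout, day 3), 0 to 3 higher and 10 to 17 lower (Quaking knockout, day 10), 32 to 34 lower (Sam68-labelled line, day 10), 5 to 8 lower (wild type, day 0 to day 3) and 1 to 3 higher (Sam68-labelled interaction). Of 732 such values for named genes, 36 lost and 4 gained a call, and 3 that had no call changed sign: Hoxb4 (range -0.052 to 0.38) and Hoxd13 (-0.30 to 0.039) in wild type and Hoxd9 (-0.72 to 3.17) in the Quaking knockout, all from day 0 to day 3. The cause was not tested. Same-numbered libraries were compared by the correlation of their deviations from the group means. No pair of groups had all 3 over 0.1, so a pairing by replicate number was not shown. Between wild type and the Quaking knockout at day 3 they were 0.259, 0.085 and 0.065. Libraries of different number reached at most 0.111 there. Replicate 1 thus stood apart, and a factor shared by replicate 1 was not tested. With the replicate number as a block, 1 Hox gene was lower in the Quaking knockout at day 3 and 1 was higher in its interaction, and 1 named gene (Hoxa10, Quaking knockout, day 0 to day 3) gained a call. At day 0 the filter on low counts kept 9 of 39 members, and without it 35 were tested.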
